A study of Mus musculus with 3 samples.

Results

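Sncg, Sncb and Uchl1 are 3 of the 41388 genes counted in sorted cells of mouse embryonic dorsal root ganglia, the clusters of sensory neuron cell bodies beside the spinal cord. Sncg and Sncb encode gamma- and beta-synuclein, and Uchl1 encodes a ubiquitin C-terminal hydrolase. They were chosen by their TPM, a read count corrected for gene length and sequencing depth, in these same libraries, so levels, ranks and ratios are given as a description without a test. The 3 libraries, named A, B and D, form 1 group with no control population. All came from C57BL/6 embryos at 14.5 days post coitum whose cells carried a Ret-EGFP reporter and were sorted by fluorescence. Ganglia of levels T11 to S1 were pooled, 100 from 5 embryos in A, 100 from 6 embryos in B and 80 from 4 embryos in D, with both sexes in every pool. The genotype label writes the reporter as the transgene Tg(Ret-EGFP)SJ, while the series text describes EGFP inserted into the endogenous Ret gene, with 1 altered allele. Library A held 20181558 counts, B 20355302 and D 29061086. The labelled tissue was checked against markers: all 6 sensory neuron markers exceeded 100 TPM, Isl1 at 494 ± 49.5 TPM among them (SD, n = 3), and the spinal cord markers Olig2 and Mnx1 had no counts. Since the RNA is a bulk pool, fewer cells of a type and less RNA per cell cannot be told apart.

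Synucleins are small, soluble proteins that bind lipid membranes through an amphipathic helix and gather in axons and presynaptic terminals. Gamma-synuclein, also named persyn, is known for its abundance in peripheral neurons, sensory neurons included, whereas beta-synuclein is best known from presynaptic terminals of the brain. Uchl1, also called PGP9.5, is so abundant in neurons that antibodies to it are a standard stain for nerve fibres. It belongs to a family of cysteine proteases that cut short adducts from the end of ubiquitin and so return free ubiquitin to the cell. In the mouse mutant gracile axonal dystrophy, which lacks functional Uchl1, the axons of sensory neurons degenerate from their ends.

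Because the synuclein genes are related, their coding sequences were set side by side to see whether reads of one could have been counted for the other. Below are the first 132 coding bases (44 codons) of 1 coding transcript of each gene, over which the alignment held no gap. Both are written 5′ to 3′ on the minus strand from GENCODE M21 (GRCm38), with the bases that differ in capitals. The Sncg stretch lies within chr14:34373702-34374580 and the Sncb stretch within chr13:54762950-54765683, each interrupted by intron sequence.
Sncg: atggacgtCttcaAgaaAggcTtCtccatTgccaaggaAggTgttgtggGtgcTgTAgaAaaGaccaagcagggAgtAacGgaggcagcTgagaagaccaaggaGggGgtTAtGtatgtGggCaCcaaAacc
Sncb: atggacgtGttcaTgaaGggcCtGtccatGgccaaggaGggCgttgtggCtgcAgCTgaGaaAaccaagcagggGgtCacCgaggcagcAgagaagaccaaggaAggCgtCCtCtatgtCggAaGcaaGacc
In this stretch 105 bases were identical (79.5%) and 27 differed, of which 21 stood at the third base of a codon, 4 at the second and 2 at the first. Over all 364 aligned coding bases the identity was 69.8%. The longest run shared by the 2 transcripts was 16 bases. None of the 803 distinct 50-base words of Sncg transcripts, and none of the 2092 of Sncb, occurred in a transcript of another gene. The read length is not given in the sources used here, but at 50 bases no word fits both genes.

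Gamma-synuclein RNA was among the most abundant of all. Sncg (ENSMUSG00000023064, chromosome 14, 34370274 to 34374789, minus strand, GRCm38.p2) had 109565, 93432 and 219517 counts in libraries A, B and D. These were 0.543% of all counts in A (95% Wilson interval 0.540% to 0.546%), 0.459% in B (0.456% to 0.462%) and 0.755% in D (0.752% to 0.759%), where the intervals cover counting error only. As TPM, the count divided by the gene's deposited exon length and scaled to the same sum in every library, Sncg stood at 16961, 13770 and 19910 in libraries A, B and D. The highest library, D, lay 1.45-fold above the lowest, B.

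Uchl1 (ENSMUSG00000029223, chromosome 5, 66676098 to 66687231, plus strand) had 27243, 36635 and 62799 counts in A, B and D. Its TPM in libraries A, B and D was 2223, 2847 and 3003, so A was lowest and B and D lay close together. The highest library exceeded the lowest 1.35-fold, and the coefficient of variation over the libraries was 15.3%, against 18.2% for Sncg.

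Beta-synuclein RNA was present at a moderate level. Sncb (ENSMUSG00000034891, chromosome 13, 54758860 to 54766595, minus strand) had 246, 496 and 384 counts in libraries A, B and D. Its TPM in libraries A, B and D was 15.1, 29.0 and 13.8, so that B stood 2.10-fold above D while A and D lay close together. The coefficient of variation was 43.6%, the highest of the 3 genes. Counting error was small beside that spread: the 95% Wilson interval of the Sncb share of counts was 0.00108% to 0.00138% in A, 0.00223% to 0.00266% in B and 0.00120% to 0.00146% in D, and the interval of B did not overlap the other two.

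**Figure D1:**
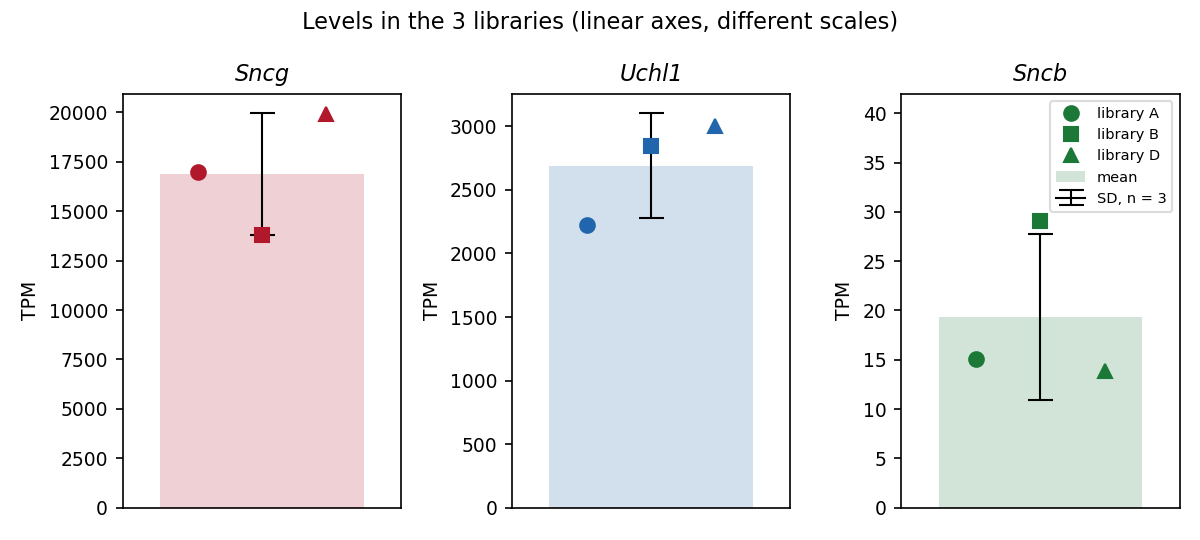
Level of Sncg, Uchl1 and Sncb in TPM (linear axes from 0, a different scale for each gene). Points are libraries A, B and D, pale bars the mean and error bars the SD over 3 libraries. Sncg was highest in D (19910) and lowest in B (13770), Uchl1 lowest in A (2223), and Sncb highest in B (29.0).

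Among all 41388 genes of the files, Sncg ranked 2 by mean TPM, at 2, 3 and 1 in libraries A, B and D. In D no gene of any kind exceeded it. Among 21461 nuclear protein-coding genes its rank was 2, 2 and 1 in A, B and D. Its neighbours in that order were tubulin and actin-cytoskeleton genes: Tuba1a (17626 ± 1281 TPM, SD, n = 3), an alpha-tubulin of growing neurons, stood just above, and Tubb3 (14755 ± 2579 TPM), the neuronal beta-tubulin, and Tmsb4x (14063 ± 4815 TPM), which encodes a protein that binds monomeric actin, just below. With Sncg at 16880 ± 3071 TPM, each of these neighbours lay within the SD of Sncg, and their order changed between libraries: Tubb3 led Sncg in A (17732 against 16961 TPM). Selenow, next in the order at 8498 ± 1989 TPM, lay below Sncg with no overlap between libraries.

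Uchl1 ranked 31 among all genes and 25 among nuclear protein-coding genes, at 30, 24 and 27 in A, B and D. Its mean of 2691 ± 412 TPM stood between Cfl1 (2758 ± 518 TPM), the actin-severing protein cofilin, and Sod1 (2661 ± 228 TPM), the cytosolic superoxide dismutase. Cox6a1, a subunit of cytochrome oxidase, and Tagln3 were next above, and Tubb2a and Gng3, a neuronal G protein subunit, next below, none of them beyond the spread of Uchl1. Sncb ranked 5240 among all genes, with 62.3% of the 13897 genes of at least 1 TPM below it. Its rank varied from 6212 in A to 4301 in B and 5509 in D. Its neighbours by level, Rrp9 and Nkap above and Myo1e, Fam131a and Lrrtm1 below, all averaged between 19.3 and 19.4 TPM and could not be ordered against it.

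**Figure D2:**
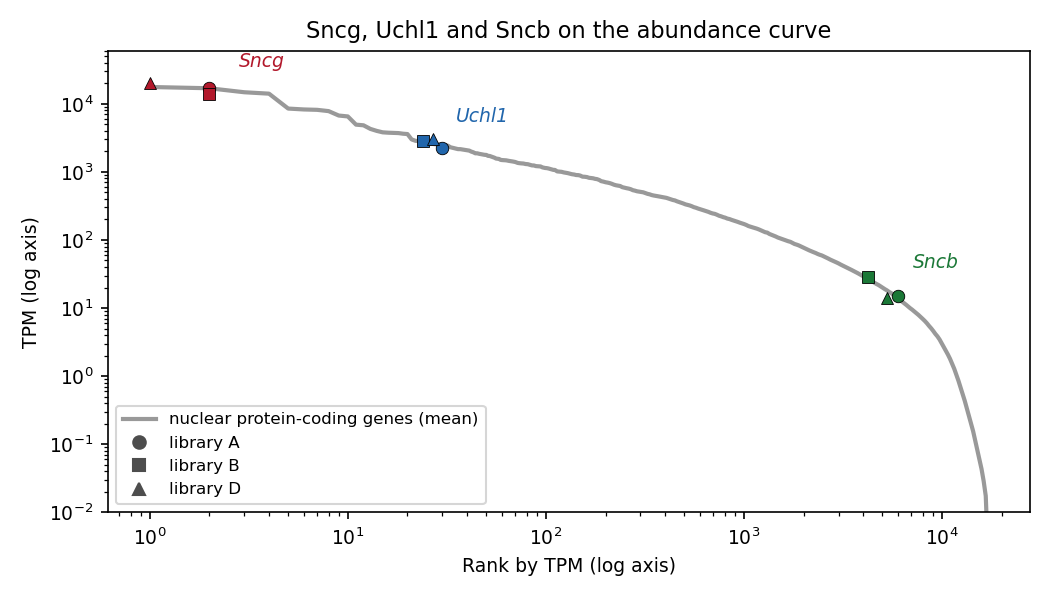
TPM of Sncg, Uchl1 and Sncb in libraries A, B and D against their rank among nuclear protein-coding genes (both axes log), with the grey line giving mean TPM by rank for all of these genes. Sncg sits at ranks 1 and 2, Uchl1 at ranks 24 to 30, and Sncb between ranks 4208 and 6024.

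Ratios were taken within each library, which removes the effect of sequencing depth. Sncg exceeded Sncb 1121-fold in A (95% exact interval from counting 989 to 1276), 474-fold in B (434 to 519) and 1439-fold in D (1302 to 1595). The mean log2 ratio was 9.84 ± 0.84 (SD, n = 3), a 915-fold ratio. Sncb made up 0.0891%, 0.210% and 0.0694% of the summed TPM of the 2 synucleins in A, B and D. The ratio in D was 3.03 times that in B, beyond the counting intervals, and B had both the lowest Sncg and the highest Sncb.

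Sncg exceeded Uchl1 7.63-fold in A, 4.84-fold in B and 6.63-fold in D (mean log2 ratio 2.64 ± 0.34, SD, n = 3). This ratio was the steadier of those with Sncg, with a 1.58-fold difference between the extreme libraries. Sncb lay below Uchl1 in every library: the log2 Sncb/Uchl1 ratio was -7.19 ± 0.57 (n = 3), and Uchl1 exceeded Sncb 147-fold in A, 98.0-fold in B and 217-fold in D.

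The size of these ratios depended on gene length, since TPM divides each count by the deposited exon length of 852 bases for Sncg, 2145 for Sncb and 1616 for Uchl1. The deposited length is given for the gene as a whole and can exceed that of 1 transcript. It equalled the coding transcript for Sncg (852 bases), but was 1.59 times the Sncb transcript used above (1351 bases) and 1.37 times the Uchl1 transcript (1177 bases). With transcript lengths the mean log2 ratio of Sncg to Sncb was 9.17 and that of Sncg to Uchl1 2.19. With coding lengths of 369, 399 and 669 bases for Sncg, Sncb and Uchl1, they were 8.62 and 2.58. As plain counts scaled for depth alone (CPM), they were 8.51 and 1.72. The order Sncg, Uchl1, Sncb held under each of these choices in all 3 libraries.

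**Figure D3:**
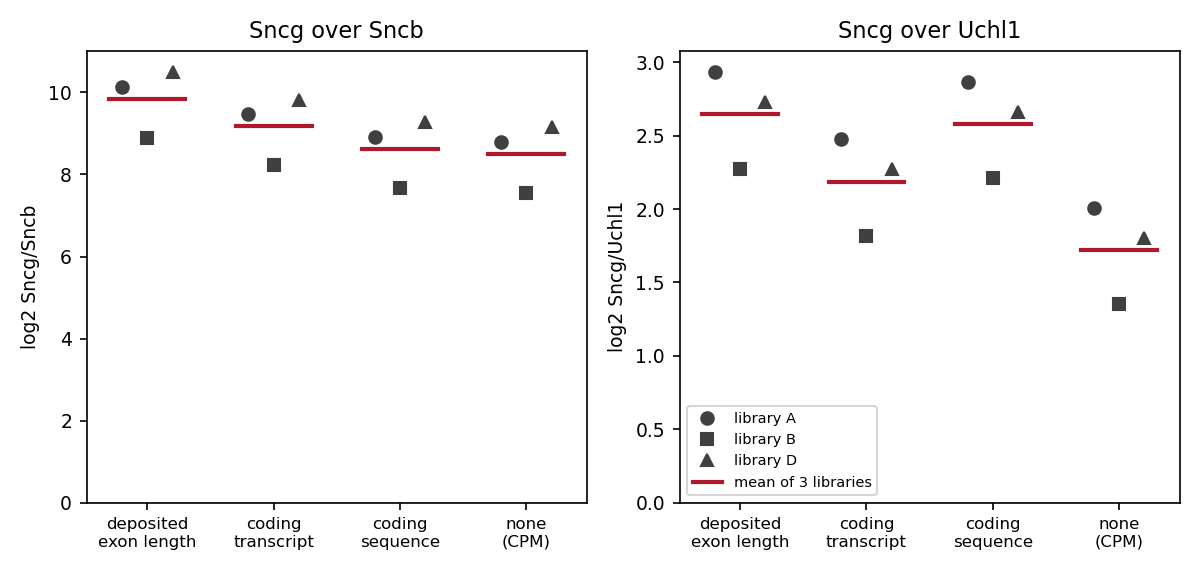
Log2 ratio of Sncg to Sncb (left) and of Sncg to Uchl1 (right) in libraries A, B and D, with counts divided by the deposited exon length, by the length of the coding transcript, by the coding length, or by none (CPM). Red lines are means of 3 libraries. B is lowest under every choice, and the mean for Sncg over Sncb falls between 8.51 and 9.84.

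Uchl1 was compared with the other enzymes that remove ubiquitin. Of the 5 genes of its own family, all reached 1 TPM, against 55.3% of 21474 protein-coding genes, and Uchl1 supplied 87.0%, 89.4% and 91.4% of the family's summed TPM in A, B and D. Uchl3, a hydrolase that also acts on the ubiquitin-like protein Nedd8, followed at 190 ± 6.79 TPM, so that Uchl1 exceeded it 12.1-fold in A, 14.4-fold in B and 15.9-fold in D. Bap1, a nuclear enzyme that removes ubiquitin from histone H2A, stood at 66.0 ± 27.0 TPM, and was lowest in D (84.3, 78.8 and 35.0 TPM in A, B and D). Uchl5, which works on the proteasome, stood at 56.4 ± 1.95 TPM. Uchl4, listed at 5.39 ± 0.729 TPM, has a coding sequence 97.4% identical to that of Uchl3. Of its 50-base words 26.2% also occur in Uchl3 transcripts, so its level and, less so, that of Uchl3 are uncertain. Among 16 other deubiquitinase genes, all reached 1 TPM, 6 reached 100 TPM and the median was 68.9 TPM, against 2.05 TPM over protein-coding genes. Otub1, an enzyme of the ovarian tumour family, was the highest at 671 ± 34.3 TPM, followed by Psmd14, the deubiquitinase of the proteasome lid, at 383 ± 14.9 TPM, Usp5 at 207 ± 69.6 TPM and Usp14 at 206 ± 27.9 TPM. Usp9x was the lowest at 5.43 ± 2.68 TPM. Uchl1 lay above every gene of the list in each library, by 3.51-fold to 4.41-fold in the case of Otub1.

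Genes for ubiquitin, for the ubiquitin-like protein Nedd8 and for ubiquitin activation were described as well. Ubb, a polyubiquitin gene, stood at 2074 ± 34.5 TPM, and Uchl1 exceeded it 1.08-fold in A, 1.35-fold in B and 1.47-fold in D. Nedd8 stood at 1642 ± 401 TPM and Uba1, the ubiquitin-activating enzyme, at 350 ± 125 TPM. Rps27a, which encodes ubiquitin fused to a ribosomal protein, was listed at 19.9 ± 5.36 TPM. These levels are uncertain, because 50-base words shared with other genes made up 48.1% of all words for Ubb, 26.3% for Rps27a and 10.0% for Nedd8, and how reads matching several genes were counted is not given in the sources used here. For Uchl1 the share was 12.6%, all of it with 1 gene, its antisense partner Uchl1os.

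**Figure D4:**
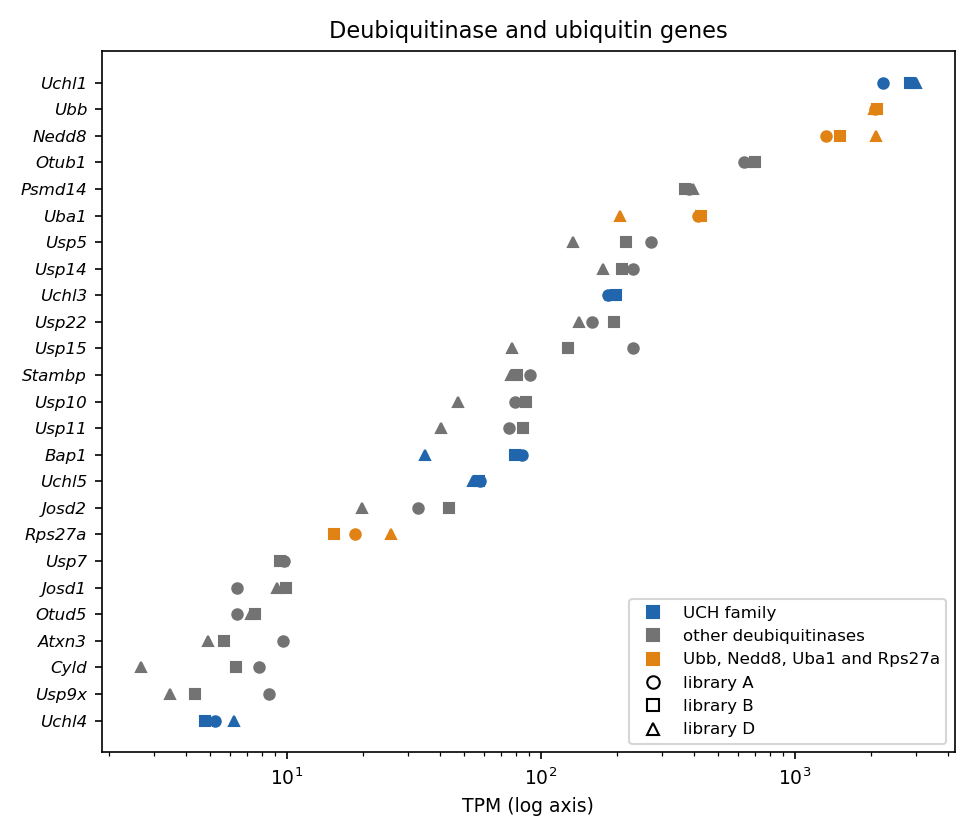
TPM (log axis) of the UCH family, other deubiquitinases, and the genes Ubb, Nedd8, Uba1 and Rps27a in libraries A, B and D, ordered by mean. Uchl1 is at the top, above Ubb (2074 TPM on average) and Nedd8 (1642 TPM).

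Uchl1os overlaps the start of Uchl1 on the opposite strand (chromosome 5, 66626495 to 66676497). They share 287 exon bases, 17.8% of the Uchl1 length and 13.1% of the Uchl1os length. Of the Uchl1 coding sequence, the first 45 bases lie under Uchl1os exons, within chr5:66676290-66676447 on the plus strand of GRCm38 (GENCODE M21). They are shown with the start codon in capitals, because reads from here cannot be told apart without strand.
Uchl1: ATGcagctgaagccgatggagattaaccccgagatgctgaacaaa
Uchl1os had 28, 3 and 30 counts in libraries A, B and D, or 1.69, 0.172 and 1.06 TPM. The count of Uchl1 itself was 27243 or more in every library, and the use of strand in counting is not given in the sources used here. No exon of another gene in the files overlapped Sncg or Sncb. The nearest gene beyond the 5′ end of Sncg, Mmrn2, which encodes an extracellular matrix protein of blood vessels, begins 715 bases away on the opposite strand and had 19, 17 and 16 counts in A, B and D. On the other side of Sncg, Fam25c had 0, 0 and 2 counts. Beside Sncb, Gprin1, which encodes a growth-cone protein that binds G proteins, stood at 7.91 ± 3.17 TPM, and Gm16249 had no counts. Apbb2 (25.8 ± 4.57 TPM) and Limch1 (4.86 ± 0.865 TPM) flanked Uchl1 and Uchl1os, with 57270 and 58604 bases between them and Uchl1. All of these neighbours were thus far below Sncg and Uchl1, while Sncb and Gprin1 stood at 15.1 and 4.55 TPM in A, 29.0 and 8.35 TPM in B, and nearer to each other at 13.8 and 10.8 TPM in D.

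Genes whose proteins are linked to synucleins at the synapse were described next. All 16 vesicle and release genes reached 1 TPM, and 7 reached 100 TPM (43.8%, against 7.49% of protein-coding genes), with a median of 64.4 TPM. The highest were Rab3a (695 ± 120 TPM), the GTPase of synaptic vesicles, Cplx1 (501 ± 148 TPM), which clamps the fusion machinery, and the SNARE genes Stx1a (420 ± 58.1 TPM) and Snap25 (332 ± 23.9 TPM). Rab5a, the GTPase of early endosomes, was the lowest at 9.50 ± 0.268 TPM. All 16 stood below Sncg and Uchl1, and all but Cplx2, Rph3a and Rab5a stood above Sncb by mean TPM. Cplx2 lay within the SD of Sncb.

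Of 16 chaperone and 14-3-3 genes, all reached 1 TPM and 9 reached 100 TPM, with a median of 171 TPM. The 14-3-3 genes Ywhae (3632 ± 236 TPM) and Ywhaz (1039 ± 179 TPM) led, followed by Hspa8 (810 ± 158 TPM), the constitutive Hsc70 chaperone, and Park7 (570 ± 106 TPM), which encodes the oxidative-stress protein DJ-1. Hspb1, a small heat shock protein gene, was the lowest at 1.29 ± 0.379 TPM. Ywhae was the single listed gene of this group above Uchl1.

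Of 15 genes linked to the clearance or cleavage of proteins, all reached 1 TPM and 5 reached 100 TPM, with a median of 83.7 TPM. Usp9x is in this list as well as among the deubiquitinases above. The lysosomal cathepsin genes Ctsl (628 ± 73.1 TPM), Ctsd (479 ± 48.0 TPM) and Ctsb (384 ± 55.3 TPM) led, followed by Nedd4 (302 ± 108 TPM), a ubiquitin ligase, and Siah2, another ligase, was lowest at 4.22 ± 1.60 TPM. Of 12 genes for kinases and a phosphatase linked to synucleins, all reached 1 TPM and 2 reached 100 TPM, with a median of 21.3 TPM. Plk2, a polo-like kinase that phosphorylates synucleins, was the highest, with 619, 453 and 203 TPM in A, B and D, lowest in D. Csnk2b, the regulatory subunit of casein kinase 2, stood at 317 ± 62.0 TPM, Csnk1d at 55.1 ± 14.9 TPM and Csnk2a1 at 28.4 ± 3.19 TPM. Grk5, a receptor kinase, was the lowest at 3.41 ± 0.843 TPM.

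The libraries were then compared for variation beyond that of other genes of the same level. None of the 3 genes was called: 0 of 3 passed edgeR's goodness-of-fit test after Benjamini-Hochberg adjustment, where 0.177% of 13530 tested genes did. Their adjusted p was 0.9999 each, and the unadjusted p was 0.272 for Sncg, 0.269 for Sncb and 0.372 for Uchl1, so that 0 of 3 lay under 0.05, against 6.11% of tested genes. DESeq2 marked 0 of the 3 as dispersion outliers and 4 genes in all. The SD of log2 CPM over the libraries was 0.44 for Sncg, 0.50 for Sncb and 0.39 for Uchl1, beside a median of 0.36 over tested genes. Among the 500 tested genes nearest in level, the median SD was 0.29 for Sncg, 0.35 for Sncb and 0.29 for Uchl1. Of these level-matched genes, 76.4% had a smaller SD than Sncg, 73.2% than Sncb and 67.2% than Uchl1, so all 3 genes lay on the more variable side without being called. With 3 libraries, a p that misses the threshold does not show that the libraries held equal levels. On the same scale, Sncg in D lay 0.72 above the mean of A and B, Sncb in B lay 0.84 above the mean of A and D, and Uchl1 in A lay 0.57 below the mean of B and D (log2 differences 0.72, 0.84 and -0.57). Over all genes, edgeR called 24, and the count was 7 with library A left out and 2 with library B left out. In the 7 lists of enzyme and partner genes, none of the tested genes was called by edgeR, against 0.177% of all tested genes. An unadjusted edgeR p under 0.05 was found for none of 5 UCH family, 6 ubiquitin-related, 15 chaperone and 15 clearance genes tested. Nor was it found for any of 12 kinase or phosphatase genes and 16 other deubiquitinase genes. Of 16 vesicle genes 2 lay under 0.05, Vamp2 and Syn1, against 6.11% of all tested genes. Vamp2, the vesicle SNARE, had 130, 166 and 41.2 TPM in A, B and D (edgeR adjusted p = 0.61). Syn1, which encodes synapsin, a protein that tethers vesicles, had 12.9, 38.0 and 23.0 TPM (edgeR adjusted p = 0.75).

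Summed markers of other cell types differed between the libraries as well. Mesenchyme markers, of which 2 of 3 reached 1 TPM, summed to 8.61, 42.4 and 4.64 TPM in libraries A, B and D, highest in B as Sncb was, and among them Col1a1 was called as varying (3.68, 28.4 and 2.32 TPM, edgeR adjusted p = 5.8e-05). Glial markers, 4 of 4 at 1 TPM or more, summed to 243, 394 and 465 TPM, highest in D as Sncg and Uchl1 were, and none of them was called. Erythroid markers, 3 of 3, summed to 45.9, 43.1 and 160 TPM, also highest in D, and among them the globin gene Hbb-bs was called (26.0, 28.5 and 115 TPM, edgeR adjusted p = 0.022). Sympathetic markers, 2 of 2, summed to 7.09, 5.48 and 1.82 TPM, and endothelial markers, 1 of 2, to 3.51, 3.42 and 1.94 TPM. Sensory neuron markers summed to 21008, 16840 and 16466 TPM. The part of these cells in the levels of Sncg, Sncb and Uchl1 was not tested.

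**Figure D5:**
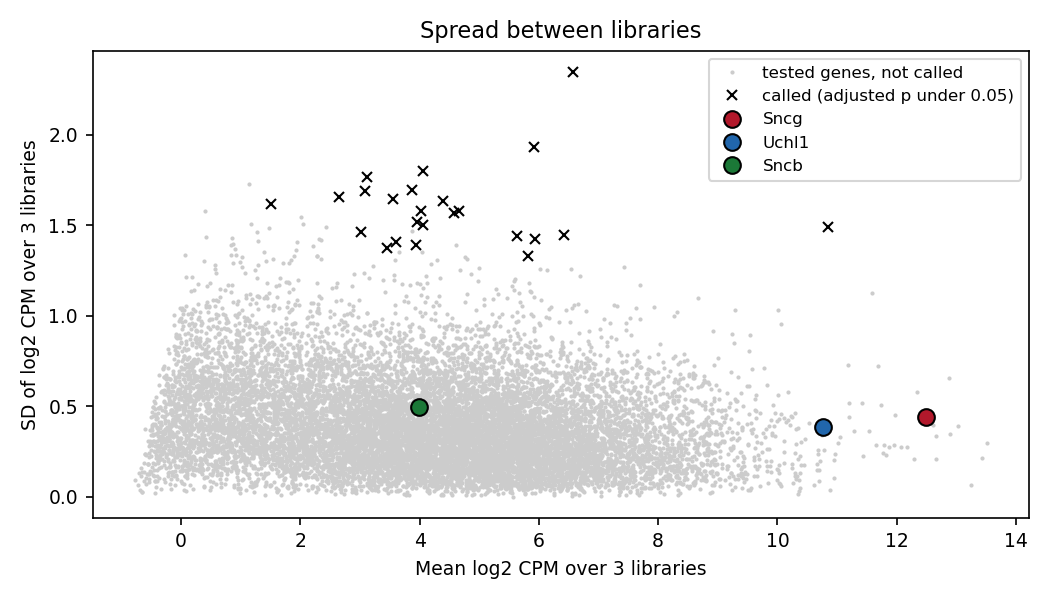
SD of log2 CPM over the 3 libraries against mean log2 CPM for the 13530 tested genes, with genes called by edgeR's goodness-of-fit test as crosses. Sncg (SD 0.44), Uchl1 (0.39) and Sncb (0.50) lie within the grey cloud of uncalled genes.

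The profile of each gene over the libraries was matched with those of 1608 protein-coding genes of at least 100 TPM, by the Euclidean distance between log2 TPM values centred on their mean. With 3 libraries such a match is a weak description. Closest to Sncg, which was highest in D and lowest in B, were Gpatch4 (distance 0.016), 2410015M20Rik, Psmb3, a proteasome subunit gene, Eif3k, a translation initiation factor gene, and Atp6v0c, a subunit of the vesicular proton pump (0.071). Closest to Sncb, which was highest in B, were Lsm4 (0.076), an RNA-binding protein gene, Clta, which encodes a clathrin light chain, Trarg1, Ppp4c and Susd2 (0.24). Lsm4 stood at 84.8, 162 and 72.6 TPM in libraries A, B and D. Closest to Uchl1, which was lowest in A, were Surf1 (0.0078), an assembly factor of cytochrome oxidase, Gcsh, Cdc42ep2, Ssr2 and Gabarap (0.030), an autophagy protein gene. The 3 sets of 5 shared no gene, which was likely in advance for 3 different profiles and 1608 genes.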

How the data were processed

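RNA of 3 pooled libraries of Ret-EGFP sorted dorsal root ganglion cells was sequenced after amplification with the SMARTer Ultra Low Input kit, per the labels' protocols. The deposited files hold raw counts for each Ensembl gene beside its exon coordinates and length. Subread, featureCounts 1.4.5 and build GRCm38.p2 are named in the submitters' processing notes, without their settings. The deposited CPM equalled the count scaled to the library total (largest difference 4.7e-11), and the deposited RPKM equalled that CPM per kilobase (largest difference 6.4e-12).

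Of 41388 genes, 40340 matched a symbol in GENCODE M21. TPM was computed from counts and deposited lengths. For variation between libraries, edgeR 4.0.16 (R 4.3.3) was run with filterByExpr, TMM and a model holding only an intercept. The residual deviance at the trended dispersion was set against a chi-square distribution, as a goodness-of-fit test with Benjamini-Hochberg adjustment at 0.05. On simulated data the test recovered most of the largest changes and missed most of the smaller ones. It missed nearly all changes about as small as the differences of Sncg, Sncb and Uchl1 between libraries, so such genes would rarely be called. With 1 group there was no contrast for quasi-likelihood testing. DESeq2 1.42.0 was an alternative. Other steps used Python 3.11.15, numpy 2.4.6, pandas 2.3.3, scipy 1.17.1, biopython 1.88 and matplotlib 3.10.9. Coding sequences and 50-base words came from GENCODE M21 transcripts. The libraries are separate pools of embryos with no molecular identifiers, so the SD covers pools and technical noise, and intervals cover counting error only.

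The genes and the 7 partner lists were chosen with earlier results of these data known. Values are given for the 4 highest and the lowest gene of each list, for the 3 genes next in level on each side, for the 5 closest profiles, and for genes that overlap or flank a described gene, except that some genes these rules name are not reported here. Of the settings tried, other lengths, CPM, other totals, filters, normalisations and dispersions, removed trends and each library left out, the effects are given in the closing section.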

Additional observations from a re-analysis of the deposited data

How the results depend on the processing

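Sncg, Uchl1 and Sncb kept their order with every length tried and with none (CPM). Normalisation scales the 3 genes of a library alike, so it could not change that order. Sncg moved beyond its SD to 5858 CPM (in place of TPM), 6343 TPM with an effective length (the deposited length minus 200 bases, at least 1) and 37970.1 TPM with the coding length. Uchl1 moved to 1770 CPM, 886 TPM with an effective length, 6335 TPM with the coding length and 3691 TPM with the coding transcript, and Sncb to 6.25, 101 and 30.7 TPM under the last 3 of these lengths. The effective length gives 6074 genes of at most 200 bases a length of 1 base, and they then took 65.7% to 69.2% of all TPM. By CPM the ranks were 10 for Sncg, 40 for Uchl1 and 7203 for Sncb, and by effective length 6, 60 and 6244. Among nuclear coding genes without ribosomal protein genes Uchl1 ranked 25. Sncg ranked between 1 and 3 with a library left out. The mean log2 ratio of Sncg to Sncb was 8.51 as CPM and 8.62 with coding lengths, that of Sncg to Uchl1 was 1.72 as CPM and 2.19 with the coding transcripts, and that of Sncb to Uchl1 was -6.04 with coding lengths. The other ratios stayed within 1 SD.

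Genes called as varying between libraries numbered 55 with the length trend removed and 4 as DESeq2 dispersion outliers, and between 2 and 27 with a library left out. Sncg, Sncb and Uchl1 were called under none of 9 edgeR alternatives each (adjusted p 0.835 to 1). The lowest unadjusted p of the edgeR test was 0.0755, for Sncb without D. With the length trend removed, the edgeR p was 0.647 for Sncg, 0.244 for Sncb and 0.675 for Uchl1, against 0.272, 0.269 and 0.372 before. With the trend in GC content removed, it was 0.152 for Sncg, 0.686 for Sncb and 0.305 for Uchl1. The part of length and GC content in the differences between libraries was not tested. All 5 closest profiles of each gene stayed the same with log2 CPM. Gene length and library scaling cancel in this distance, so that result was nearly fixed in advance and is no support. Of 42 counts of list members under other thresholds or CPM, 38 stayed within 1.5 times. The coding and transcript lengths and the GC trend were taken from GENCODE transcripts and chosen after seeing the files. Lengths from RefSeq proteins and GC content from a genome were not run. No paired analysis was possible because there is 1 group. Depth limits Sncb most, with 246 counts in A.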
